A study of Mus musculus with 18 samples.

Results

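Immediate early genes were followed in cones sorted from wildtype mouse retinas. They were 10 genes chosen by symbol, of 54532 genes counted, and were read in all 18 libraries: Fos, Fosb and Fosl2 of the Fos family, Jun, Junb and Jund of the Jun family, and Egr1, Ier2, Atf3 and Nr4a1. Immediate early genes are transcribed within minutes of a stimulus, from signalling proteins already present in the cell, and their transcripts are short-lived. Fos and Jun family proteins pair to form the transcription factor AP-1, which goes on to switch later genes. In neurons these genes are known to respond to depolarization and growth factors, and in many tissues to enzymatic dissociation.

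Each library came from the sorted cones of 1 retina, made with a modified Smart-Seq2 protocol that amplifies full-length cDNA. All eyes had been injected as newborns with AAV8-SynP136-H2BGFP, whose cone promoter drives a green fluorescent histone used for the sort. Txnip retinas had also received AAV8-RedO-Txnip, in which the human red opsin promoter expresses Txnip, a thioredoxin-interacting arrestin family protein that limits glucose uptake, and the control eyes were given the H2BGFP vector alone. BALB/c mice, which are albino, were taken at postnatal day 21 (6 control and 6 Txnip libraries), and C57BL/6J mice, which are pigmented and lack functional Nnt, at postnatal day 35 (3 control and 3 Txnip libraries). Strain and age therefore cannot be told apart, and neither can strain and the sequencing runs. The retinas were dissociated with papain before sorting, and neither the time from dissection to lysis nor the retinas that shared a mouse were given in the labels, so p-values measure the spread between these libraries.

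The libraries held 647712 to 5172156 counted read pairs. A count of 0 allows up to 3 counts, which is 0.577 to 4.61 CPM depending on the library (CPM are counts on a common scale, set by TMM-normalized library sizes), and such floors cover counting error only. All 12 cone markers were detected in all libraries and took 3.63% to 9.60% of the counts. The ribosomal RNA locus took 3.83% to 10.2% of the counts in BALB/c libraries. In C57BL/6J it ran from 2.04% (control replicate 1) to 17.2% (control replicate 2), and its part in the results below was not tested. Txnip was at 0 to 1.47 CPM in the control libraries and 814 to 1952 CPM in the Txnip libraries. BALB/c control replicates 4 and 5 stood apart in the number of genes with a count (29629 and 29401, against 16914 to 26696 in the others). In bulk samples fewer expressing cells and less RNA per cell cannot be told apart.

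The control region of these genes is well studied. Fos and its relatives are classic targets of CREB, a factor that binds the cyclic AMP response element (CRE), and of serum response factor, which binds the CArG box. RefSeq windows (250 bases before and 50 after the RefSeq start, GRCm38.p6) were read for 8 of the 10 genes. None was found for Ier2, and Egr1 was left out of the search, so nothing is said of its window. The windows of the 6 of these genes that were tested below are shown. They are Fos (chr12:85473640-85473939, plus strand), Fosb (chr7:19309996-19310295, minus strand), Junb (chr8:84978699-84978998, minus strand), Jun (chr4:95052173-95052472, minus strand), Atf3 (chr1:191183284-191183583, minus strand) and Nr4a1 (chr15:101266596-101266895, plus strand). Each is written 5′ to 3′ on the strand of its gene, with capitals for the CRE half-site TGACG or its reverse complement.
Fos: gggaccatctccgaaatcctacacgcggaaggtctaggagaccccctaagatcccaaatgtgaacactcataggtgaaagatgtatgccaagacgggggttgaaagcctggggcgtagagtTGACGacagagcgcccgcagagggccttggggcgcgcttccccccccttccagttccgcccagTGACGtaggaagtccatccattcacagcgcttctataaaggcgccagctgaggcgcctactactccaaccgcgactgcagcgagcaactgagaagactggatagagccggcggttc
Fosb: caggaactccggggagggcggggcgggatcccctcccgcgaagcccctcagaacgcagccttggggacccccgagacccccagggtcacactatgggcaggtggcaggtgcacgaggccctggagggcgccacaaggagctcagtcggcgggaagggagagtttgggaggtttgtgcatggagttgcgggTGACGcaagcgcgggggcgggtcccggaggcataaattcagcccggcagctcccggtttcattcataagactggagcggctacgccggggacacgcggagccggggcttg
Junb: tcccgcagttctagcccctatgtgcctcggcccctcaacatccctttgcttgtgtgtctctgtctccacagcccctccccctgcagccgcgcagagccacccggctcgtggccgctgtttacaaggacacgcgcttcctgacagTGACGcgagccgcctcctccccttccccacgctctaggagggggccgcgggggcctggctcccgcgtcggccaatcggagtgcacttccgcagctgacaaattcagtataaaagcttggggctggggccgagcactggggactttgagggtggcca
Jun: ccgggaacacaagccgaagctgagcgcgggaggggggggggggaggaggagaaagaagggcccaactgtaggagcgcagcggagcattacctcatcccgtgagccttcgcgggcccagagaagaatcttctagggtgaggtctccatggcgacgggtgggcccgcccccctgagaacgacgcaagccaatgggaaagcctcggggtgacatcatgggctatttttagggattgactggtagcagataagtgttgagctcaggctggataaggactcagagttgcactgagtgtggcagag
Atf3: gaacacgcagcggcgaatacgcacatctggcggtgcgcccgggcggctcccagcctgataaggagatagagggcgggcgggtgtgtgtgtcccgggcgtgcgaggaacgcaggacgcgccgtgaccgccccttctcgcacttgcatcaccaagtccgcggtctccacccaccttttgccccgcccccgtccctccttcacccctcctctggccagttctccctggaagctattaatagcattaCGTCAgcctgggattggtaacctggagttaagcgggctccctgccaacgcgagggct
Nr4a1: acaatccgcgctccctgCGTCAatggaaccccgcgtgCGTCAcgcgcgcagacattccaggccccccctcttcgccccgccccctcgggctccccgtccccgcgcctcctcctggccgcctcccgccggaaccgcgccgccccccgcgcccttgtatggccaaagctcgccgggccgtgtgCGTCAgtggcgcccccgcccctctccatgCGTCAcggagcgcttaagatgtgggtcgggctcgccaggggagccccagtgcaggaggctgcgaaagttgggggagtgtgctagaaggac
The half-site stood in the windows of Fos (at −129 and −66, counted from the RefSeq start to the first base of the match in the window), Fosb (at −60), Junb (at −106), Atf3 (at −7) and Nr4a1 (at −233, −213, −69 and −40). It stood in 20.8% of the 32851 windows of this length over all genes. Jun, Fosl2 and Jund had none. The EGR site GCGGGGGCG was found for Fosb (at −50), Fosl2 (at −79) and Nr4a1 (at −60), against 2.91% of all windows. None of the 8 windows held the whole CRE TGACGTCA, the AP-1 site TGANTCA or a CArG box, which stood in 1.79%, 7.81% and 1.63% of all windows (both strands searched in each case, and each whole CRE also holds the half-site). Only exact matches were searched, so close variants were missed. Sites more than 250 bases upstream of the RefSeq start lie outside the windows. The RefSeq start of Fos and of Jun is the first base of the counted gene, while that of Atf3 lies 34706 bases, that of Nr4a1 12577 bases and that of Fosl2 671 bases downstream of it, and that of Jund upstream of it. For these 4 the window may therefore not be the promoter in use, which was not tested.

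In GRCm38, Fos (ENSMUSG00000021250) lies on chromosome 12 from 85473890 to 85477273, Fosb (ENSMUSG00000003545) on chromosome 7 from 19302696 to 19310051, and Fosl2 (ENSMUSG00000029135) on chromosome 5 from 32135801 to 32157842. Jun (ENSMUSG00000052684) lies on chromosome 4 from 95049034 to 95052222, Junb (ENSMUSG00000052837) on chromosome 8 from 84974484 to 84978718 and Jund (ENSMUSG00000071076) on chromosome 8 from 70698949 to 70700616. Egr1 (ENSMUSG00000038418) lies on chromosome 18 from 34859823 to 34864984, Ier2 (ENSMUSG00000053560) on chromosome 8 from 84661331 to 84662852, Atf3 (ENSMUSG00000026628) on chromosome 1 from 191170296 to 191218039 and Nr4a1 (ENSMUSG00000023034) on chromosome 15 from 101254269 to 101274795. Counting did not use strand, and a read pair was counted for every gene whose exons it touched. Jun shares 232 exonic bases with the antisense gene Junos, Junb shares 173 with Prdx2, and Jund shares 877 of its 1668 with Gm11175, so reads in these bases cannot be assigned to one gene. Prdx2, a peroxidase, was the more abundant of its pair, with 18095 counts over all libraries against 2208 for Junb.

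Of the 10 genes, 7 were above the floor of 3 counts in all libraries, and their order of level was not sharp. Per kb of exon, BALB/c control cones held 80.0 ± 68.3 CPM per kb of Egr1 (SD, n = 6), a zinc finger transcription factor, which ranked 499 of 14751 tested genes. Fos was at 59.0 ± 54.3 CPM per kb, Ier2, a small nuclear protein of less known role, at 41.0 ± 23.7, and Jun at 35.3 ± 12.4 (SD, n = 6 each). Junb was at 29.9 ± 14.7 CPM per kb and Nr4a1, an orphan nuclear receptor, at 28.9 ± 6.35 (SD, n = 6 each). These 6 interleaved: each exceeded its lower neighbour in only 2 to 4 of the 6 libraries. Atf3, a stress-induced bZIP factor, was at 12.2 ± 1.90 CPM per kb and lay below Nr4a1 in 6 of 6 libraries, and Fosb was at 1.06 ± 1.23 and lay below Atf3 in 6 of 6. Jund (0.658 ± 0.454 CPM per kb) and Fosl2 (0.152 ± 0.105) were lowest.

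Fosl2 and Jund were near the floor in all groups. Fosl2, which encodes the AP-1 subunit Fra-2, had 0 to 7 counts per library and 45 in all. Jund, the Jun family member usually described as constitutive, had 0 to 12 counts per library and 69 in all, of which those in the shared bases may belong to Gm11175. Neither passed the filter on low counts in any fit, so no difference could be tested, and Fosb passed only when all 4 groups were fitted together. This left 7 of the 10 genes tested within each strain and 8 between strains.

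**Figure D1:**
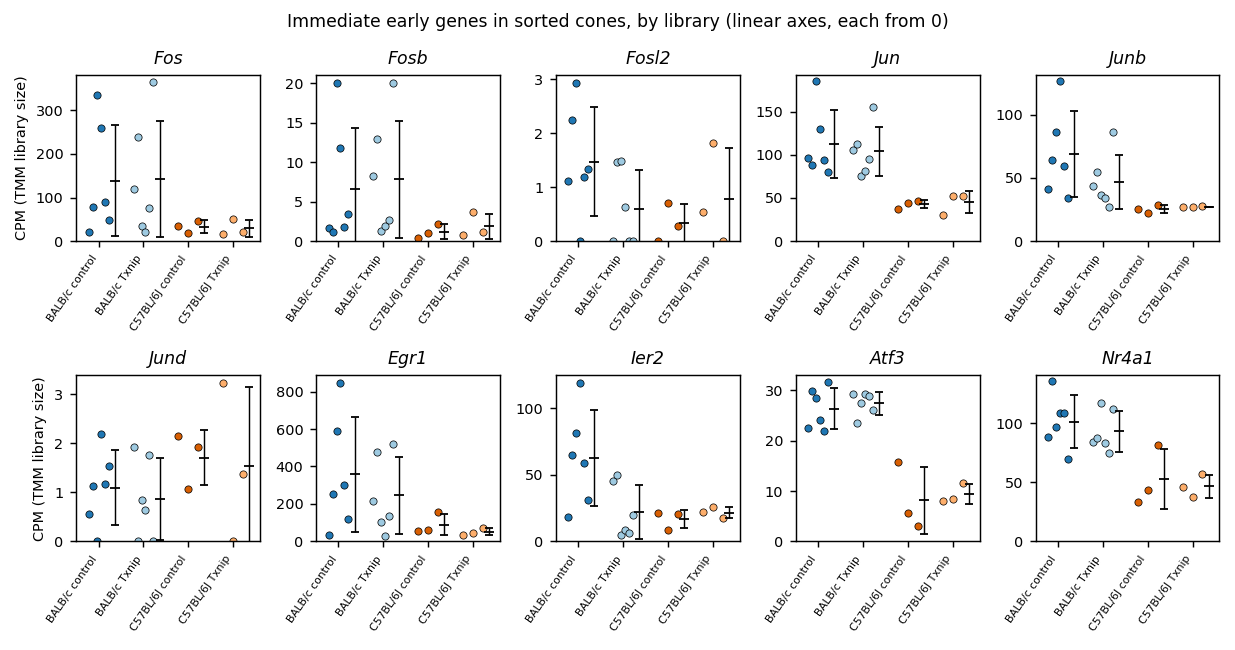
Level of each of the 10 genes in CPM (y axis, linear, from 0) in each of the 18 libraries by group; the bar beside each group is its mean ± SD. Fos and Egr1 spread from 20.2 to 335 and from 36.5 to 848 CPM among the 6 BALB/c control libraries, while Atf3 stayed between 21.8 and 31.5.

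The spread between retinas of a group was the main feature of Fos, Fosb, Egr1 and Ier2. In BALB/c control cones Fos was at 20.2 CPM in the lowest library, 84.6 at the median and 335 in the highest, a 16.6-fold range. Egr1 was at 36.5 CPM in the lowest, 278 at the median and 848 in the highest, a 23.3-fold range. The lowest library for both was control replicate 1, and the highest were control replicate 3 for Fos and control replicate 4 for Egr1. BALB/c Txnip cones were spread as widely, with Fos at 21.6, 98.0 and 364 CPM (lowest, median, highest) and Egr1 at 28.0, 176 and 518. In these, Txnip replicate 4 was lowest and Txnip replicate 6 highest for both genes, so control and Txnip libraries covered nearly the same interval of Fos, while that of Egr1 reached higher in the controls.

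Fosb, the Fos relative that accumulates on repeated stimulation, was at 1.12, 2.62 and 20.0 CPM (lowest, median, highest) in BALB/c control cones and at 1.27, 5.42 and 20.0 in BALB/c Txnip cones. These are 2 to 41 counts per library (13 in Txnip replicate 6), and the high libraries were control replicates 3 and 4 and Txnip replicates 2 and 6, as for Fos. Ier2 was at 18.5, 62.1 and 119 CPM in control and 4.85, 14.1 and 49.7 in Txnip cones. Its low Txnip values, in replicates 3, 4 and 5, rest on 23, 13 and 7 counts.

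Atf3, Nr4a1 and Jun varied less than Fos and Egr1 within BALB/c. Atf3 was at 21.8, 26.2 and 31.5 CPM (lowest, median, highest) in control and 23.6, 28.2 and 29.3 in Txnip cones. Nr4a1 was at 69.8, 103 and 136 CPM in control and 74.5, 85.8 and 118 in Txnip cones. Jun was at 80.4, 95.3 and 185 CPM in control and 76.0, 100.3 and 155 in Txnip cones, and Junb at 34.0, 62.1 and 127 in control and 27.2, 40.1 and 86.0 in Txnip cones. Of these, Jun and Junb had their highest values in the same libraries as Fos or Egr1, and Atf3 and Nr4a1 did not.

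In C57BL/6J Fos and Egr1 spanned a narrower range than in BALB/c, but over 3 libraries per group against 6, and a range grows with the number of libraries. Fos was at 34.3, 17.7 and 47.0 CPM in control replicates 1 to 3 and 16.4, 50.6 and 20.1 in Txnip replicates 1 to 3. Egr1 was at 56.4, 59.6 and 155 CPM in control and 35.5, 45.8 and 72.7 in Txnip cones, and Fosb at 0.357, 1.06 and 2.20 in control and 0.808, 3.64 and 1.14 in Txnip cones. Control replicate 3 was highest for Fos and Egr1 among the controls. Jun was at 37.5, 44.7 and 46.7 CPM in control and 30.4, 52.4 and 52.6 in Txnip cones. Junb was at 25.4, 22.004 and 28.6 CPM in control and 26.9, 26.9 and 27.4 in Txnip cones. Ier2 was at 21.1, 8.87 and 20.6 CPM in control and 21.8, 25.5 and 17.8 in Txnip cones. Nr4a1 was at 33.2, 44.0 and 81.4 CPM in control and 45.8, 37.5 and 56.95 in Txnip cones. Atf3 was at 15.7, 5.68 and 3.02 CPM in control and 8.08, 8.37 and 11.7 in Txnip cones, so that its order over the control libraries was the reverse of that of Nr4a1.

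Set against all 14751 tested genes, the spread of the first 4 was large. The SD of log2 CPM within groups, over all 18 libraries, was 1.40 for Egr1 and 1.36 for Fos, which ranked 69 and 83 among all genes, and the median gene had 0.39. Among the 521 genes at or above its own level Egr1 ranked 2, and among the 1623 at or above its own Fos ranked 4. Fosb (1.26) and Ier2 (1.05) ranked 169 and 604. Junb (0.54), Atf3 (0.45), Jun (0.39) and Nr4a1 (0.37) were nearer the median over all genes. Among the genes at or above its own level, however, Junb ranked 148 of 3971, Jun 161 of 2042, Nr4a1 211 of 2181 and Atf3 778 of 7278.

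**Figure D2:**
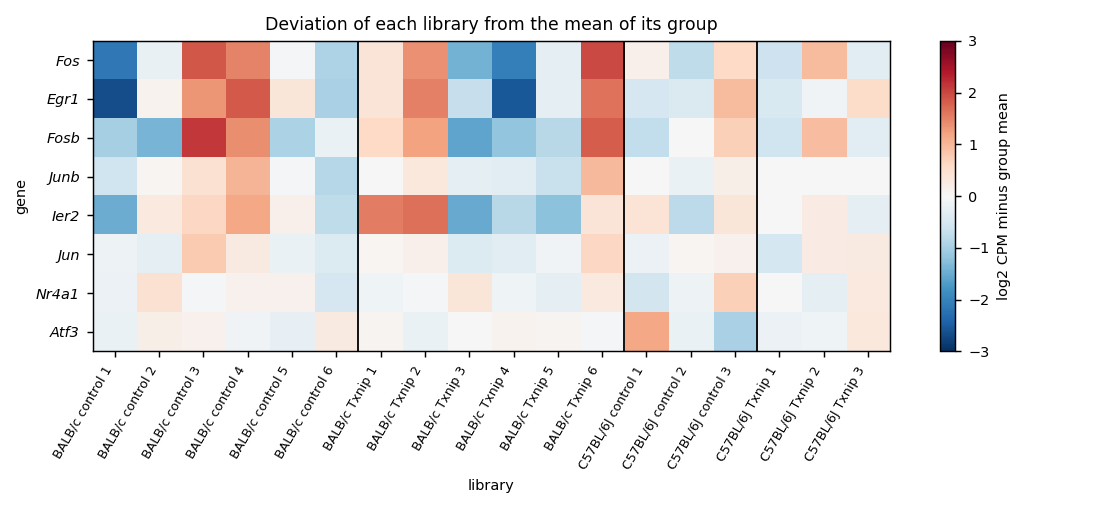
Deviation of log2 CPM (prior count 2) from the mean of the library's own group, for the 8 tested genes (rows) in the 18 libraries (columns; black lines part the groups; red above, blue below the group mean). Fos, Egr1, Fosb, Junb and Ier2 share most of their high and low libraries in BALB/c, while Nr4a1 and Atf3 stay near their group means there.

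Libraries high in one of these genes were high in several others. After the mean of each group was subtracted, Fos and Egr1 correlated over the 18 libraries with Pearson's r = 0.92 and Spearman's rho = 0.88. Fosb correlated with Jun (r = 0.86, rho = 0.80) and with Fos (r = 0.86, rho = 0.80), and Fos with Junb (r = 0.81, rho = 0.85). Among Fos, Fosb, Egr1, Jun, Junb and Ier2 all 15 pairs were positive, from r = 0.47 (Jun and Ier2) to 0.92. Without the 2 libraries farthest from the median of the mean deviation of the 8 genes (BALB/c control replicate 1 and BALB/c Txnip replicate 6) these 15 ran from 0.48 to 0.88, and within the 12 BALB/c libraries from 0.57 to 0.96. These are descriptions of the libraries, which share their depth and preparation across genes, and no test was made.

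Atf3 and Nr4a1 followed less or not at all. Nr4a1 correlated with Junb at r = 0.44 (rho = 0.52) and with Egr1 at r = 0.41 (rho = 0.50), near the lowest of the 15 pairs, and with the other 4 at r from 0.06 to 0.19. Against the mean standardized deviation of the other 7 genes, Atf3 had r = −0.25 (rho = −0.12) and Nr4a1 r = 0.16 (rho = 0.20), whereas Fos had r = 0.93 (rho = 0.91), Egr1 0.89 (rho = 0.93) and Junb 0.87 (rho = 0.92). Between Atf3 and Nr4a1 themselves r was −0.57 with rho = −0.21, and −0.24 within BALB/c. The windows shown above hold CRE half-sites both for Fos, Fosb and Junb and for these 2, and that of Jun (r = 0.75, rho = 0.75) has none. For Atf3 and Nr4a1 the window may not be the promoter in use. A link between half-sites and these correlations was not tested.

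**Figure D3:**
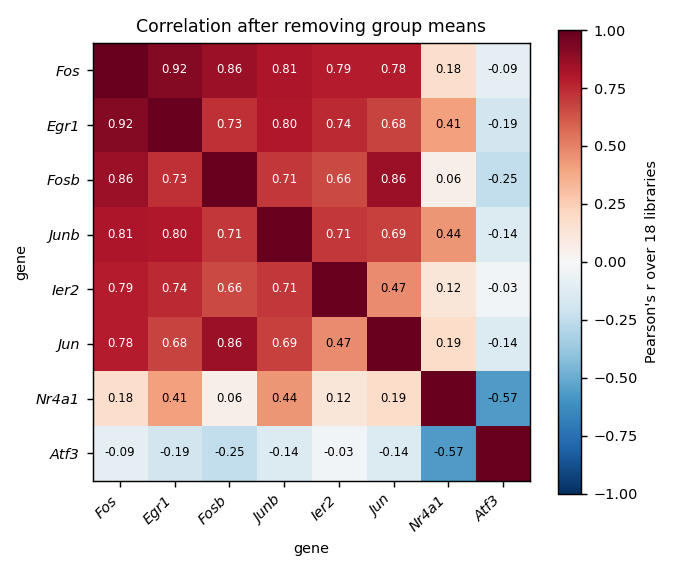
Pearson's r between the 8 tested genes over 18 libraries, after subtracting the mean of each library's group (both axes list the genes; red positive, blue negative). The block from Fos to Jun is positive throughout (0.47 to 0.92), and the row of Atf3 lies between −0.57 and −0.03.

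The genes with the most similar pattern to the mean of the 8 were led by Junos (r = 0.88, rho = 0.86), which overlaps Jun and shares reads with it. Sh3glb1, an endophilin of membrane remodelling, had r = 0.81 (rho = 0.83), the mitochondrial protein gene Letm2 0.81 (rho = 0.82) and Btbd9 0.81 (rho = 0.82). Akip1, Gm28496, B130024G19Rik, Borcs6, Ripk2 and Zfp574 completed the first 10, with r from 0.74 to 0.80. Of the lists of related genes, the closest were Ier3 (r = 0.70, rho = 0.60), the secreted pentraxin Nptx2 (r = 0.64, rho = 0.65), and the feedback genes Dusp1, a MAP kinase phosphatase (r = 0.62, rho = 0.65), and Zfp36, which destabilizes mRNA (r = 0.61, rho = 0.58). These ranked 20, 49, 74 and 76 among all other genes.

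Values of depth and of other cell types were set beside this spread. BALB/c Txnip replicate 6, the library with the highest Fos, was the shallowest (647712 counts), and BALB/c control replicate 1, one of the lowest, had 1752535 against 2041271 in the high control replicate 3. The deepest BALB/c libraries, control replicate 6 (5172156) and Txnip replicate 3 (4699750), had mean deviations of −0.71 and −0.60. The shallow Txnip replicates 4 (1517534) and 5 (1131750) were low as well, at −0.83 and −0.55. The part of depth was not tested. The log2 share of counts on 9 rod markers correlated with the mean deviation of the 8 genes at r = 0.01, that on 12 cone markers at −0.07, that on 8 Müller glia markers at 0.08 and that on 6 ganglion cell markers at −0.02. Horizontal cell markers had r = −0.32, blood markers −0.28 and endothelial markers 0.24, and the amacrine, bipolar, astrocyte and retinal pigment epithelium lists lay between −0.06 and 0.10. The 8 microglia markers had r = 0.50, but they took at most 0.0027% of a library, and of them Cx3cr1 was at 0 counts in 13 of the 18 libraries, Tmem119 in 16 and P2ry12 in 11, while Csf1r held most of their counts. The part of microglia in the spread was not tested.

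Whether the genes differed between the wildtype strains was asked first in control cones, in the fit of all 4 groups. Jun, Junb, Atf3, Nr4a1 and Ier2 were lower in C57BL/6J, by 1.9-fold to 3.67-fold, and Fos, Fosb and Egr1 had estimates in the same direction that were not called. So 5 of 8 tested genes were called, all lower, where 17.6% of the 14751 genes tested were called in either direction and 9.51% were called lower. Without Fosb, which was not tested within either strain, 5 of 7 were called and the median log2 difference was −1.72, against 0.00 over all genes tested.

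Atf3 and Jun had the strongest evidence. Atf3 was at 26.3 ± 4.09 CPM in BALB/c (SD, n = 6) and 8.14 ± 6.69 in C57BL/6J (SD, n = 3). Its log2 difference was −1.72 (SE 0.33, 95% interval −2.40 to −1.05, edgeR adjusted p = 6.81e-04). Adjusted p-values credited to edgeR are from its quasi-likelihood test, adjusted by Benjamini-Hochberg over all genes in the fit. Jun was at 113 ± 39.5 CPM in BALB/c and 43.0 ± 4.86 in C57BL/6J, a log2 difference of −1.38 (SE 0.26, 95% interval −1.92 to −0.84, edgeR adjusted p = 6.96e-04). Junb was at 68.7 ± 33.9 and 25.3 ± 3.29 CPM, a log2 difference of −1.43 (SE 0.35, edgeR adjusted p = 0.00597). In each of these 3 genes every C57BL/6J control library lay below every BALB/c control library, which was so for 9.66% of all genes tested. Junos, which shares reads with Jun, differed by −1.39 (edgeR adjusted p = 0.00569), and Prdx2, which shares reads with Junb, by 0.36 (edgeR adjusted p = 0.202).

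Nr4a1 was at 102 ± 22.3 CPM in BALB/c and 52.9 ± 25.3 in C57BL/6J, a log2 difference of −0.93 (SE 0.24, edgeR adjusted p = 0.00977), and the groups overlapped because of C57BL/6J control replicate 3. Without C57BL/6J control replicate 1 its difference was −0.70 and no longer called (edgeR adjusted p = 0.0618). Ier2 was at 62.4 ± 36.1 and 16.9 ± 6.92 CPM, a log2 difference of −1.87 (SE 0.61, edgeR adjusted p = 0.0378), with overlap at BALB/c control replicate 1. The call of Ier2 was marginal: it was lost with DESeq2 (adjusted p = 0.0535) and in 7 of the 9 fits that left out 1 control library, with edgeR adjusted p-values up to 0.118 (without C57BL/6J control replicate 2). It was also lost without BALB/c control replicates 4 and 5 together (edgeR adjusted p = 0.130).

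Fos, Egr1 and Fosb had the largest estimates and the widest intervals. Fos was at 139 ± 128 CPM in BALB/c control cones (SD, n = 6) and 33.0 ± 14.7 in C57BL/6J (SD, n = 3), a log2 difference of −2.05 (95% interval −3.72 to −0.38, edgeR adjusted p = 0.0823). Egr1 was at 359 ± 306 and 90.4 ± 56.0 CPM, a log2 difference of −1.98 (95% interval −3.59 to −0.37, edgeR adjusted p = 0.0816). Fosb differed by −2.34 (95% interval −4.41 to −0.28, edgeR adjusted p = 0.109), but it passed the filter only in the fit of all groups, where its high libraries were BALB/c, so that its direction is tied to the filter. In all 3 the groups overlapped at the lowest BALB/c libraries. Without BALB/c control replicate 1, the library with the lowest Fos and Egr1, both were called (edgeR adjusted p = 0.0467 and 0.0350). This was 1 of the 9 fits that left out 1 control library, and neither gene was called in the others. There the edgeR adjusted p reached 0.192 for Fos and 0.201 for Egr1. Leaving out the lowest library of the higher group moves the groups apart by itself, so it adds no evidence.

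The strain difference was then read between the Txnip groups of the same fit, which shares its filter, normalization and estimate of spread with the control contrast. Atf3, Jun and Nr4a1 were lower in C57BL/6J again, and Junb, Ier2, Fos, Egr1 and Fosb were not called. Thus 3 of 8 tested genes were called, against 17.6% of genes in either direction and 9.38% in this direction. The log2 difference was −1.54 for Atf3 (SE 0.32, edgeR adjusted p = 0.00151), −1.18 for Jun (SE 0.26, edgeR adjusted p = 0.00273) and −0.99 for Nr4a1 (SE 0.24, edgeR adjusted p = 0.00650). In these 3 every C57BL/6J Txnip library lay below every BALB/c Txnip library (9.72% of all genes tested). Fos differed by −2.26 (95% interval −3.97 to −0.56, edgeR adjusted p = 0.0617) and Egr1 by −2.24 (95% interval −3.89 to −0.58, edgeR adjusted p = 0.0564). Both were called with DESeq2 (adjusted p = 0.0485 and 0.0444) and in a fit of the 9 Txnip libraries alone (edgeR adjusted p = 0.0432 and 0.0278). With 1 Txnip library left out, Fos was called in 3 of 9 fits and Egr1 in 1 of 9. The edgeR adjusted p there reached 0.191 for Fos and 0.170 for Egr1. Both were called without BALB/c Txnip replicate 4, the lowest BALB/c Txnip library for both genes (edgeR adjusted p = 0.0372 and 0.0269). Junb differed by −0.74 (edgeR adjusted p = 0.146), Fosb by −1.99 (edgeR adjusted p = 0.162) and Ier2 by −0.13 (95% interval −1.35 to 1.08, edgeR adjusted p = 0.910).

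**Figure D4:**
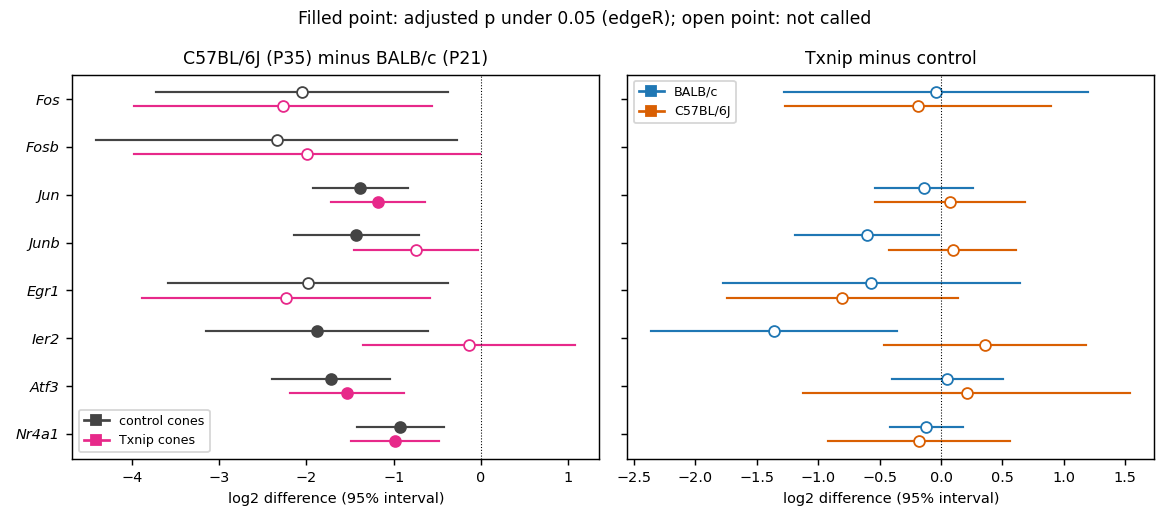
Log2 difference with its 95% interval for the tested genes (y axis), C57BL/6J minus BALB/c in control and Txnip cones (left) and Txnip minus control in each strain (right); filled points passed an adjusted p of 0.05 in edgeR. Between strains Jun, Atf3 and Nr4a1 are filled in both control and Txnip cones, and Junb and Ier2 in control cones; no point is filled on the right, where Fosb was not tested.

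Markers of other cells moved with the strain. All 6 ganglion cell markers were lower in C57BL/6J control cones, with log2 differences of −4.64 for Sncg and −4.19 for Nefl, and their summed share was 0.0328% to 0.0976% of counts in BALB/c control libraries and 0.0013% to 0.0091% in C57BL/6J. Pou4f2, a defining ganglion cell factor, was at 0 counts in 5 of the 6 C57BL/6J libraries and 1 of the 12 BALB/c libraries. Of 6 amacrine markers 4 were lower, and their share was 0.0279% to 0.0360% in BALB/c control and 0.0112% to 0.0359% in C57BL/6J. Of 9 rod markers 4 were higher in C57BL/6J, with a share of 1.19% to 1.46% in BALB/c control and 0.967% to 2.40% in C57BL/6J. Of 8 Müller glia markers 3 were higher and 1 lower. Their summed share was 0.103% to 0.121% in BALB/c control (median 0.115%) and 0.0366% to 0.151% in C57BL/6J control (median 0.0788%). Of the 12 cone markers 4 were higher (Pde6c, Opn1mw, Arr3 and Gngt2). The tested microglia marker, Csf1r, was higher (0.94), and the tested retinal pigment epithelium marker, Lrat, was lower (−4.83). Pou4f2 and Lrat passed the filter in neither strain alone, and Thy1 and Gad2 in BALB/c only, so their direction is tied to the filter. In the Txnip libraries 5 of the 6 ganglion cell markers and 4 of the 6 amacrine markers were lower. C57BL/6J control replicate 1 had the highest rod share (2.40%), and C57BL/6J Txnip replicates 1 and 2 were close to each other (1.68% and 1.66%). Without C57BL/6J control replicate 1 and Txnip replicate 2, Ier2 in control cones was not called (edgeR adjusted p = 0.0524) and Fos in Txnip cones was (edgeR adjusted p = 0.0404). Txnip replicate 2 was also the C57BL/6J Txnip library with the highest Fos (50.6 CPM). Leaving it out alone already called Fos (edgeR adjusted p = 0.0451). The part of the other cells in the strain differences was not tested.

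Other genes of the response were counted by list in control cones. Of 22 other immediate early factors 7 could be tested, and 2 fell in C57BL/6J: Nr4a2, a sister of Nr4a1 (−1.91, edgeR adjusted p = 0.0365), and Crem, a CREB family factor (−0.82, edgeR adjusted p = 0.0250). Nr4a2 passed the filter in BALB/c and not in C57BL/6J, so its direction is tied to the filter. The median log2 difference of the 7 tested factors was −0.66, and only 5 of the list passed the filter in each strain alone. Of 24 feedback and signalling genes 18 were tested, with a median of −0.21, and 3 rose: Dusp6, a MAP kinase phosphatase (2.06, edgeR adjusted p = 6.64e-06), Ier3 (0.60, edgeR adjusted p = 0.00624) and Btg2 (0.60, edgeR adjusted p = 0.0152). Nfkbia, the inhibitor of NF-κB, fell (−0.62, edgeR adjusted p = 0.0117). Dusp6, Ier3 and Btg2 were also higher and Nr4a2 lower in the Txnip libraries of C57BL/6J (log2 differences of 1.62, 0.65, 0.54 and −3.28). The called genes of these lists, and of those that follow, stand beside the 17.6% of all genes called in either direction, and nothing particular to a list is read from them.

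Among 11 neuronal activity effectors 7 were tested, with a median of −1.71. Only 5 passed the filter in each strain alone, so this median includes genes whose direction is tied to the filter. Nrn1 (−2.50, edgeR adjusted p = 2.02e-04), Scg2 (−2.58, edgeR adjusted p = 0.00294) and Pcsk1 (−3.42, edgeR adjusted p = 0.0222) fell and Nptx2 (1.79, edgeR adjusted p = 0.0130) rose. Pcsk1 passed the filter in neither strain alone and Nptx2 only in C57BL/6J, which ties their direction to the filter. These first 3 encode a neurite growth factor, a granin of secretory granules and a prohormone convertase, and ganglion cells also express them. Of 12 heat shock genes, which respond to heat and other stress of cells, 10 were tested and only Hspa1a was called, higher in C57BL/6J (0.98, edgeR adjusted p = 0.0395), with a median of 0.13. In the Txnip libraries Hspa8 and Hspa1a were higher (1.03 and 0.99).

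Of 14 other bZIP factors 10 were tested, with a median of −0.19. Mafg rose (1.15, edgeR adjusted p = 2.56e-05), and Atf2 (−0.73, edgeR adjusted p = 0.00924) and Atf4, the factor of the integrated stress response (−0.56, edgeR adjusted p = 0.0142), fell. Of 29 upstream signalling genes 28 were tested, with a median of 0.02, and 3 rose (Elk3, a serum response factor partner, Mef2d and Crtc3, a CREB coactivator) and 2 fell (the calcium-dependent kinase Camk2a and the Jun kinase Mapk10). Their log2 differences were 3.40, 0.55, 0.94, −3.14 and −2.47, and Elk3 passed the filter in C57BL/6J only. In the Txnip libraries 1 of 7 other immediate early factors was lower, 3 of 18 feedback genes were higher, 1 activity effector was higher and 2 were lower, 5 of 28 upstream genes were higher and 3 lower, and of the 10 bZIP factors Mafg was higher (0.72) while Atf2 and Atf4 were not called.

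**Figure D5:**
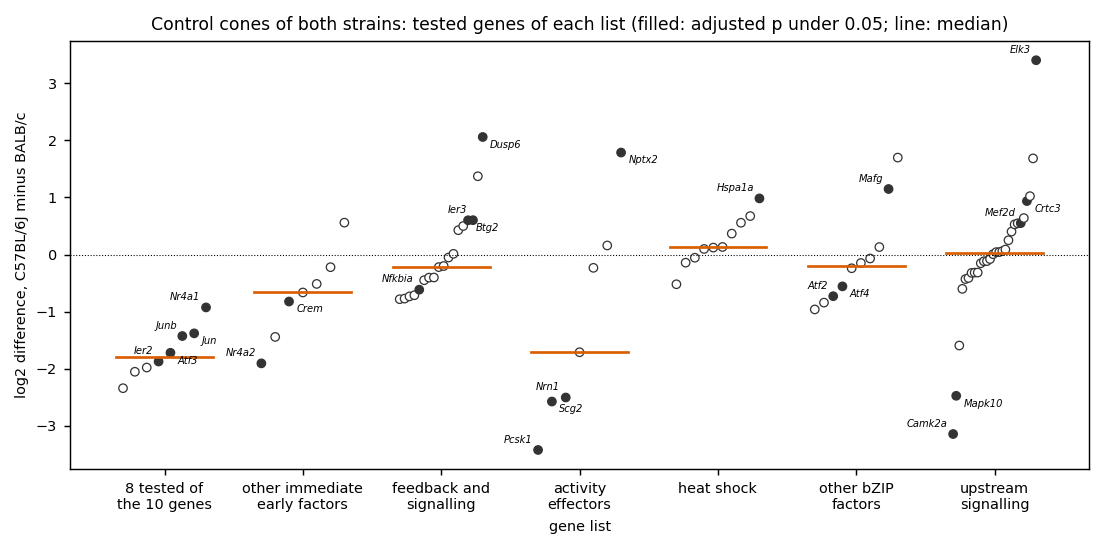
Log2 difference between control cones of C57BL/6J and those of BALB/c (y axis, negative where C57BL/6J is lower) for the tested genes of each list (x axis); filled points passed an adjusted p of 0.05 in edgeR and are named, and orange lines are list medians. The tested immediate early genes have a median of −1.80 (−1.72 without Fosb, which passed the filter through BALB/c libraries), while the medians of the heat shock and upstream signalling lists are 0.13 and 0.02.

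The effect of Txnip on the immediate early genes was tested in each strain against its own controls. None of the 7 tested genes was called in BALB/c and none in C57BL/6J, where 0.0166% and 0.0154% of all genes tested were called (2 genes in each strain). The BALB/c count over all genes was not stable: it was 76 with DESeq2 and 254 in edgeR without BALB/c Txnip replicate 1. At an unadjusted p under 0.05 there were 2 of the 7 in BALB/c (Ier2 and Junb) and 0 of the 7 in C57BL/6J, beside 1372 of 12017 and 97 of 12974 genes in all. DESeq2 also called none of the 7 in either strain, but edgeR without the filter, on all genes of at least 1 count, called 3 of the 7 in BALB/c (Ier2, Egr1 and Junb). In no member did the groups separate, as they did for 0.699% of genes tested in BALB/c and 4.4% in C57BL/6J.

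Ier2 had the largest Txnip estimate, 62.4 ± 36.1 CPM in BALB/c control against 22.3 ± 20.2 in Txnip cones (SD, n = 6 each), a log2 difference of −1.36 (95% interval −2.36 to −0.36). Its unadjusted edgeR p was 0.0103 and its adjusted p 0.266. Junb was at 68.7 ± 33.9 and 47.1 ± 21.2 CPM, a log2 difference of −0.60 (95% interval −1.19 to −0.02, edgeR adjusted p = 0.418). Egr1 differed by −0.57 (95% interval −1.78 to 0.64) and Fos by −0.04 (95% interval −1.28 to 1.198), so that changes of more than 2-fold in either direction lay inside the interval of Fos. For the steadier genes the interval was narrow: it was −0.54 to 0.26 for Jun, −0.42 to 0.18 for Nr4a1 and −0.40 to 0.50 for Atf3.

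In C57BL/6J the estimates were −0.19 for Fos, −0.81 for Egr1, 0.36 for Ier2, 0.07 for Jun, 0.09 for Junb, 0.21 for Atf3 and −0.18 for Nr4a1. Their 95% intervals all held 0, the widest being −1.12 to 1.54 for Atf3, and their edgeR adjusted p-values were all 1.00. No gene of the other lists was called for Txnip in either strain. The share of amacrine markers was higher in BALB/c Txnip libraries (0.0378% to 0.0513%) than in BALB/c controls (0.0279% to 0.0360%), and its part in these estimates was not tested.

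The difference of the Txnip effect between strains was not called for any of the 8 tested genes, as for any gene (0% of 14751, with 706 genes at an unadjusted p under 0.05). Ier2 had the largest value, 1.74 on the log2 scale (95% interval 0.02 to 3.46), set by a BALB/c estimate of −1.36 beside 0.36 for C57BL/6J. Its unadjusted edgeR p was 0.0475 and its adjusted p 1.00. The other 7 lay between −0.26 (Egr1) and 0.68 (Junb), with 95% intervals that held 0.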

How the data were processed

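The authors deposited 1 table of raw counts per library, in which featureCounts 1.6.2 had assigned read pairs to Ensembl 94 exons (GRCm38), without normalization. Per the file headers, chimeric pairs were left out, a pair was counted for each gene it overlapped, and no option for strand or multiple alignments was set. STAR, DESeq2 and GRCm38.p6 are named in the submitters' processing notes. A deposited table per strain of the authors' DESeq2 fold changes and p-values was not used. Groups came from the sample titles.

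The fits used edgeR 4.0.16 under R 4.3.3 (filterByExpr, TMM, glmQLFit, glmQLFTest, Benjamini-Hochberg adjustment over all genes tested, threshold 0.05), within each strain for Txnip (12017 and 12974 genes) and in 1 fit of 4 groups (14751 genes) for strain and for the difference of effects. Library totals were 647712 to 5172156 counts, and precision depended on these and on the spread between libraries. Intervals are 95% intervals from the standard error, with the standard error taken from the p-value where edgeR's bound on it applied. CPM per kb used the exonic length in the files. Correlations used log2 CPM with a prior count of 2. The code of the fits was tested on counts simulated from their own estimates of spread, which cannot show whether the model suits these data.

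The genes and lists were chosen with earlier results of these data known. Genes were named by rule: the 10 members, up to 6 called genes per list and comparison by smallest p, the 10 genes most correlated with the members, genes sharing exons with a member, and markers that move with a result. Alternatives were DESeq2 1.42.0, DESeq2 size factors, all genes with a count, at least 10 counts in every library, a replicate block, fits of fewer or all groups and each library left out. Leaving out pairs of libraries, and the ribosomal RNA locus, was added after seeing the data.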

Additional observations from a re-analysis of the deposited data

How the results depend on the processing

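Jun and Atf3 were called between strains, in control and in Txnip cones, under every alternative in which they were tested, as was Junb in control cones. The 7 genes tested within each strain kept their direction in the control comparison. Fosb is not counted, since its direction is tied to the filter. The filter on low counts moved the most. With all genes of at least 1 count, edgeR called 1400 genes for Txnip in BALB/c and 3 of the members (Ier2, Egr1 and Junb), 5 genes in C57BL/6J, 8 members between strains in control cones and 7 in Txnip cones, and 186 genes and 1 member (Ier2) for the difference of effects. The cause was not tested. With at least 10 counts in every library it called 0 genes for Txnip in each strain, and 1516 and 1476 between strains in control and Txnip cones, with fewer genes tested. DESeq2 called 76 genes for Txnip in BALB/c and 5 members between strains in Txnip cones, as did the 9 Txnip libraries alone (5 members).

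Same-numbered samples did not pair (correlation of deviations −0.065 to 0.099 in BALB/c and −0.11 to 0.078 in C57BL/6J, with 1 of 6 and 0 of 3 numbers best matched to themselves). With the replicate number as a block, 1645 genes differed between strains in control cones, where Ier2 was no longer called (−2.07, edgeR adjusted p = 0.0733), Fos in BALB/c changed sign to 0.13 for Txnip and Nr4a1 to 0.014 for the difference of effects. Fos in BALB/c was also positive with DESeq2 (0.036) and without BALB/c control replicates 4 and 5 (0.16), where Atf3 was −0.046.

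With 1 library left out, Txnip called 2 to 254 genes in BALB/c (254 without Txnip replicate 1) and 2 in C57BL/6J. Strain called 1604 to 2472 genes and 3 to 7 members in control cones (3 without C57BL/6J control replicate 1, 7 without BALB/c control replicate 1), and 1848 to 2874 genes and 3 to 5 members in Txnip cones (5 without BALB/c Txnip replicate 4). The difference of effects called 0 to 1 genes (1 without C57BL/6J control replicate 1). The Txnip estimates of uncalled genes crossed 0 in BALB/c for Fos (−0.47 to 0.44), Jun (−0.26 to 0.055) and Atf3 (−0.0015 to 0.12), and in C57BL/6J for Fos (−0.88 to 0.14), Jun (−0.086 to 0.30), Atf3 (−0.20 to 1.12) and Nr4a1 (−0.42 to 0.26). So did Ier2 between strains in Txnip cones (−0.41 to 0.25), and for the difference of effects Fos (−0.85 to 0.26), Fosb (−0.48 to 1.12), Egr1 (−0.70 to 0.38), Atf3 (−0.24 to 1.09) and Nr4a1 (−0.29 to 0.40). Depth limits Fosb, with 1 to 41 counts per library, and left Fosl2 and Jund untested.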

Other observations

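The ratio of Ier2 to Fos within a library gave a further description of the BALB/c groups. It was 0.243 to 0.917 in control libraries, with a median of 0.652, and 0.0549 to 0.382 in Txnip libraries, with a median of 0.175, so the ranges overlapped. In C57BL/6J the same count ratio was 0.439 to 0.615 in control and 0.504 to 1.33 in Txnip libraries. The ratio of Egr1 to Fos was 1.76 to 3.37 in BALB/c control, 1.29 to 3.04 in BALB/c Txnip, 1.65 to 3.36 in C57BL/6J control and 0.906 to 3.61 in C57BL/6J Txnip libraries. This was a narrower range than that of either gene in BALB/c, but a wider one than that of either in C57BL/6J Txnip libraries. These are ratios of counts and were not corrected for exonic length.

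Atf3 was the steadiest of the tested genes in BALB/c Txnip cones, with a coefficient of variation of 8.22% over libraries that held 17 to 130 counts of it, and one of the most variable in C57BL/6J control cones, where it was 82.2% over 3 libraries of 11 to 44 counts.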
